A study of Sus scrofa with 11 samples.

Results

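The 10 genes described here encode enzymes of mitochondrial beta-oxidation, measured in the M. semimembranosus of 11 Duroc gilts on Affymetrix Porcine Genome arrays, 1 array per pig. They are CPT1B, CPT2, ACADVL, ACADL, ACADM, ACADS, HADHA, HADHB, HADH and ETFDH. Every probe set to which the platform annotation gives a single symbol from this list was taken. That gave 10 of the 6765 genes with such a probe set, read by 14 of the 23999 non-control probe sets: 3 for HADHB, 2 each for ACADVL and ETFDH, and 1 for each of the other 7 genes. Where a gene has several, they are told apart by brightness. The low protein (LP) group of 5 gilts received 128 g/kg crude protein and 7 g/kg total lysine. The high protein (HP) group of 6 gilts received 217 g/kg crude protein and 13.0 g/kg lysine. Both diets were set at 14 MJ/kg digestible energy, were offered without restriction from about 10 weeks of age and were fed for 63 days. All pigs were purebred females, penned in 2 groups. Pigs were allotted within blocks of initial weight, and slaughter date was a term in the study's model of carcass measurements. Which block, pen and date each pig had was not known here, so none of them could be fitted. Whether the 2 pen groups were the 2 diets was not known either, so pen and date cannot be told apart from diet. Means are printed with their SD, over 5 pigs for LP and 6 for HP.

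Beta-oxidation shortens activated fatty acids in the mitochondrial matrix by a 2-carbon unit per turn, and in muscle it supplies much of the energy spent at rest and in sustained work. Long-chain acyl groups enter as carnitine esters through CPT1B and CPT2. A family of acyl-CoA dehydrogenases, each fitted to a range of chain lengths, then takes the opening step of each turn. The trifunctional protein of HADHA and HADHB completes the turn for long chains, while HADH serves medium and short ones. Electrons from the dehydrogenases pass by way of the electron transfer flavoprotein to ETFDH, which hands them to ubiquinone.

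The deposited levels are on a log2 scale, with 1 median of 6.72 shared by all 11 arrays. The arrays still differed in the brightness of their upper end. The mean of 9 hybridisation spike-in probe sets, which read bacterial and phage transcripts and no muscle RNA, ran from 11.70 to 12.05 in LP and from 11.56 to 12.53 in HP. HP 2, HP 4 and HP 1 stood at the top of this range and HP 3 at its lower end. All 14 probe sets lay above the highest of 23 negative controls on every array. Of 11 genes fixed as skeletal muscle markers, 8 had a single-symbol probe set, and all 8 were above these controls on all arrays. ACTA1, MB and MYH1 had none.

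Transcripts for these enzymes leaned lower in LP muscle. ETFDH, the final electron carrier of the pathway, passed the test on the dimmer of its 2 probe sets only. Read by the brightest probe set of each gene, as the lists further below are, 9 of the 10 genes lay below 0 and 0 passed. Of the 14 probe sets, 13 differed by less than 0 in LP minus HP, against 52.6% of all probe sets tested. The lean was not particular to them: 8 of 8 skeletal muscle markers, 7 of 7 fast fibre genes and 12 of 17 citrate cycle genes lay below 0. Among genes of uptake, activation and carnitine transfer it was 6 of 13. The median of the 14 was -0.26 on the log2 scale, against -0.016 over all 23999. At an unadjusted limma p of 0.05 or less, 1 of the 14 fell and 0 rose (two-sided). Over all probe sets 5.11% passed this threshold, 2.97% lower and 2.15% higher in LP, so 1 of 14 stood close to the background. A further 6 of the 14 had a limma p between 0.05 and 0.1, 4 of them for the 2 genes of the trifunctional protein. That made 7 of 14 under 0.1, against 2432 of 23999 over all probe sets. By the brightest probe set of each gene it was 4 of 10. Probe sets of the same gene are not independent, so these counts and those below run above the number of genes. After adjustment by Benjamini-Hochberg over all probe sets, 0 of them had a limma p of 0.05 or less (the smallest was 0.644), while 1227 passed unadjusted. The count of members was sensitive to single arrays. It was 7 without HP 3, 7 without LP 4 and 2 without HP 5, always in the lower direction, where 4.18%, 2.96% and 2.93% of all probe sets were called lower. Without HP 1, HP 2 and HP 4 together, a setting chosen with array values known, it was 0, and the median of the members was -0.11. In whole muscle, fewer cells of a type and less RNA per cell cannot be told apart.

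**Figure D1:**
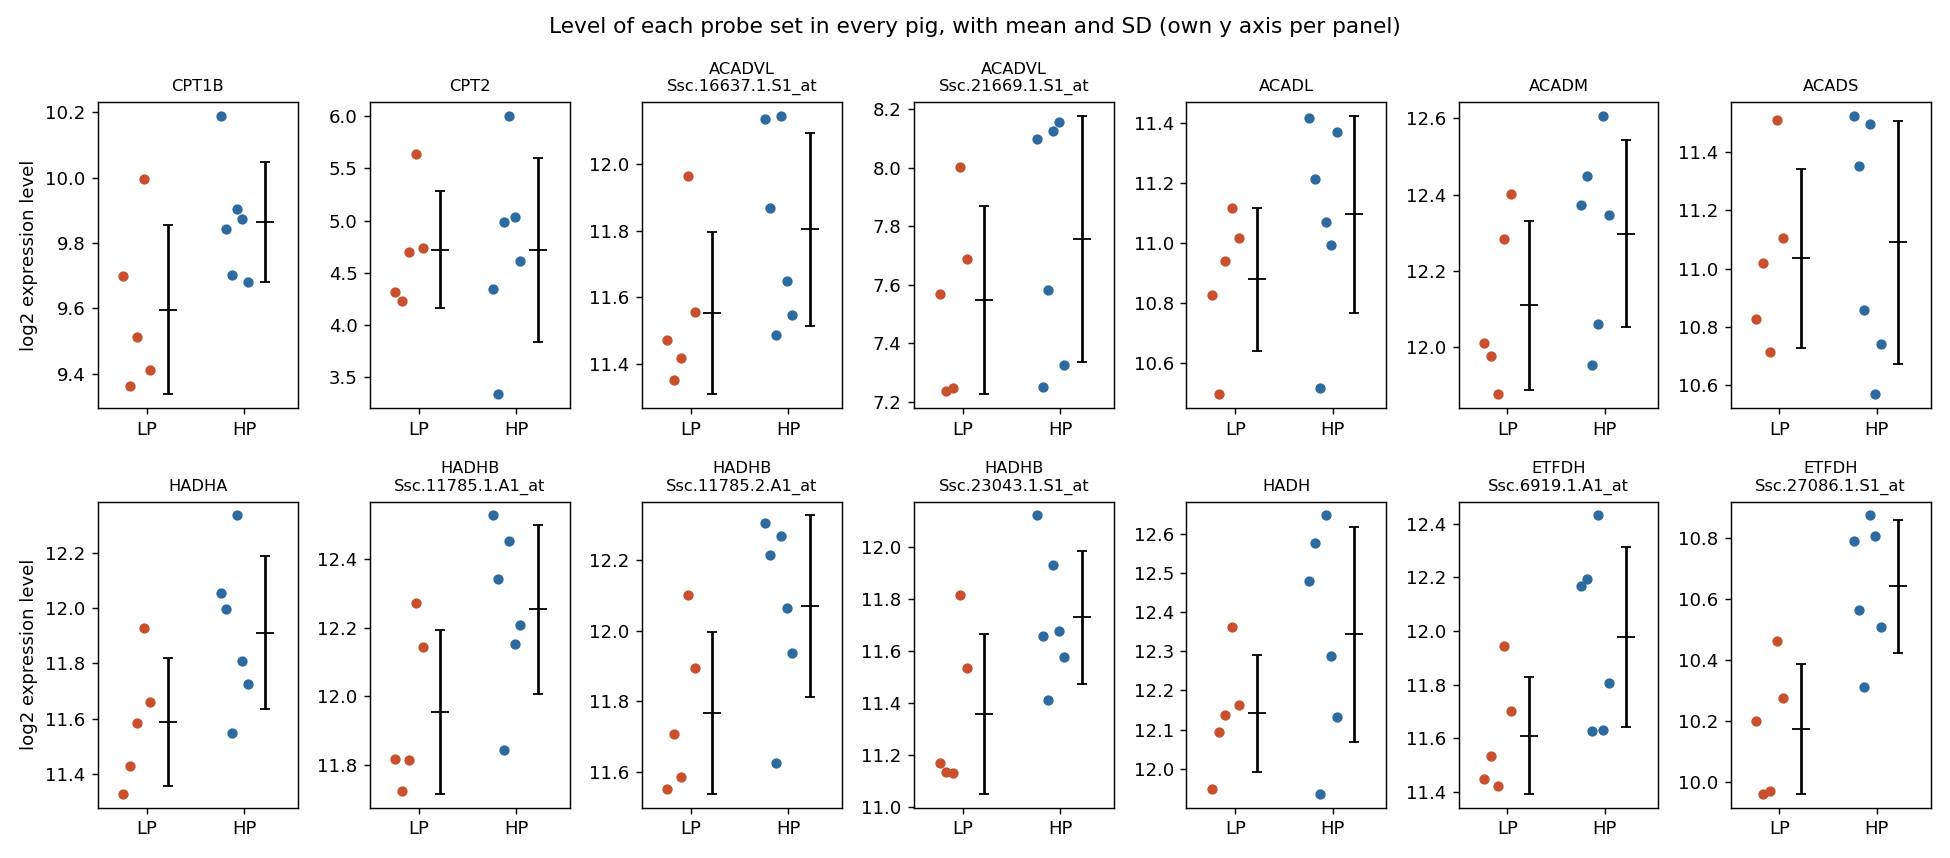
Log2 expression level of each of the 14 probe sets by pig (points), LP on the left and HP on the right, with the mean ± SD of 5 LP and 6 HP pigs in black and a y axis for each panel. The dimmer ETFDH probe set, in the last panel, shows the clearest separation, with 4 of 5 LP pigs below the lowest HP pig, while the diets overlap widely for CPT2 and ACADS.

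ETFDH lay below 0 in LP minus HP on both of its probe sets and passed on the dimmer of them. On the dimmer one the level was 10.20, 9.96, 9.97, 10.46 and 10.28 in LP 1 to LP 5, against 10.31 at the lowest, 10.68 at the median and 10.87 at the highest in HP. LP 4 was the only LP pig inside the HP range. ETFDH fell by 0.47 on the log2 scale here (10.17 ± 0.21 for LP, 10.64 ± 0.22 for HP), which is 1.38-fold lower, with a limma p of 0.00804, an adjusted p of 0.892 and an exact permutation p of 0.0108. On the brighter one the level was 11.45, 11.53, 11.42, 11.95 and 11.70 in LP 1 to LP 5, against 11.63, 11.99 and 12.43 at the lowest, median and highest HP pig. This difference was -0.37 (95% confidence interval -0.76 to 0.028, limma p = 0.0653, exact permutation p = 0.0714) and did not pass. Without HP 3, without HP 5 or without LP 4 it passed. With each diet's mean taken out, the readings of these 2 probe sets had a Pearson r of 0.63 over the 11 arrays. The call on the dimmer probe set held in limma without each array in turn (p between 0.00318 and 0.0243). Without HP 1, HP 2 and HP 4 together the difference was -0.37 and did not pass.

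The partners of ETFDH had smaller differences, neither past the threshold. ETFA and ETFB, the subunits of the flavoprotein that delivers the electrons, were named after their values were seen. ETFA averaged 11.99 in LP and 12.13 in HP (log2 difference -0.14, exact permutation p = 0.407). ETFB averaged 11.07 in both diets (log2 difference -0.0017, limma p = 0.989, exact permutation p = 0.981). Within an array, the brighter ETFDH probe set minus ETFA was -0.38 ± 0.09 for LP and -0.15 ± 0.13 for HP, a difference of -0.23 on the log2 scale. Minus ETFB it was 0.54 ± 0.16 for LP and 0.91 ± 0.24 for HP, a difference of -0.37. The diets overlapped in both contrasts, and neither was tested, since ETFDH was singled out for its p.

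The trifunctional protein was the next step by size of the difference. It carries out hydration, dehydrogenation and thiolysis of long-chain intermediates, with HADHA as its alpha and HADHB as its beta subunit. In Sscrofa11.1 the genes are direct protein-coding neighbours. HADHA stood at 11.33, 11.43, 11.58, 11.93 and 11.66 in LP 1 to LP 5, against 11.55, 11.90 and 12.34 at the lowest, median and highest HP pig. Of the LP pigs 2 lay below all HP pigs, and LP 4 was above the HP median. The difference was -0.33 (95% confidence interval -0.69 to 0.037, limma p = 0.0739, exact permutation p = 0.0693). For HADHB the brightest probe set stood at 11.82, 11.73, 11.82, 12.27 and 12.14 in LP 1 to LP 5, against 11.84, 12.27 and 12.53 at the lowest, median and highest HP pig. Here 3 LP pigs lay below every HP pig, and LP 4 and LP 5 lay among them. The 3 HADHB probe sets differed by -0.30, -0.30 and -0.37, with limma p of 0.0843, 0.0840 and 0.0568, and their pairwise r across arrays lay between 0.90 and 0.94. None of the 4 trifunctional probe sets passed with the values as deposited. All 4 passed without HP 3 or without LP 4.

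Entry of long chains through the carnitine shuttle was read by CPT1B and CPT2. CPT1B, the muscle form of the outer membrane enzyme and the site where malonyl-CoA restrains the pathway, stood at 9.70, 9.36, 9.51, 9.995 and 9.41 in LP 1 to LP 5. In HP it was 9.68 at the lowest, 9.86 at the median and 10.19 at the highest pig. Of the LP pigs 3 were below all HP pigs, and LP 4 was above all HP pigs but HP 1. The difference was -0.27 (95% confidence interval -0.59 to 0.053, limma p = 0.0933, exact permutation p = 0.0736). Of the fits without 1 array it passed only in the one without LP 4 (-0.37). CPT2, which re-forms the acyl-CoA on the inner membrane, had a dim probe set with a wide spread, 4.72 ± 0.56 for LP and 4.72 ± 0.88 for HP. The diets overlapped entirely, between 4.23 and 5.64 in LP and between 3.34 and 6.004 in HP. Its 95% confidence interval ran from -0.93 to 0.94, so neither a rise nor a fall of the size seen in the other members could be told from no difference on this probe set. Between these 2 enzymes acts SLC25A20, the translocase that carries acylcarnitines through the inner membrane. It fell by 0.39 on the log2 scale (10.61 ± 0.27 for LP, 11.002 ± 0.23 for HP, limma p = 0.0332, exact permutation p = 0.0325). ACSL1, the main acyl-CoA synthetase of muscle and fat, fell by 0.44 (11.83 ± 0.38 for LP, 12.27 ± 0.26 for HP, limma p = 0.0429, exact permutation p = 0.0455). Neither passed with the spike-in level as a covariate, at -0.24 for SLC25A20 and -0.30 for ACSL1. Of the 11 fits that left out 1 array, SLC25A20 passed in 4 (without HP 3, HP 6, LP 3 or LP 4, limma p up to 0.0905 in the rest). ACSL1 passed in 3 (without HP 3, LP 4 or LP 5, limma p up to 0.109 in the rest).

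The acyl-CoA dehydrogenases, ordered by the length of their substrates, all lay below 0 and none passed. ACADL alone of them passed without HP 3. ACADVL, which acts on very long chains at the inner membrane, stood at 11.47, 11.35, 11.42, 11.96 and 11.56 in LP 1 to LP 5 on its brighter probe set, against 11.49, 11.76 and 12.14 at the lowest, median and highest HP pig. Its difference was -0.25 (limma p = 0.166, exact permutation p = 0.156), and the dimmer ACADVL probe set differed by -0.21. ACADL, for long chains, stood at 10.83, 10.49, 10.94, 11.12 and 11.02 in LP 1 to LP 5, against 10.51, 11.14 and 11.42 at the lowest, median and highest HP pig. Its difference was -0.22 (limma p = 0.256, exact permutation p = 0.255), and 3 HP pigs were above all LP pigs. ACADM, for medium chains, stood at 12.01, 11.98, 11.88, 12.28 and 12.40 in LP 1 to LP 5, against 11.95, 12.36 and 12.61 at the lowest, median and highest HP pig. Its difference was -0.19 (limma p = 0.247, exact permutation p = 0.210), and the diets overlapped over most of their range. ACADS, for short chains, stood at 10.83, 11.02, 10.71, 11.51 and 11.11 in LP 1 to LP 5, against 10.57, 11.104 and 11.53 at the lowest, median and highest HP pig. The smallest difference of the family was that of ACADS, -0.055 (95% confidence interval -0.54 to 0.43, exact permutation p = 0.797), and its sign turned in 5 of 20 alternative settings, among them without HP 1, HP 4 or LP 3.

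HADH, the 3-hydroxyacyl-CoA dehydrogenase of medium and short chains, stood at 11.95, 12.09, 12.14, 12.36 and 12.16 in LP 1 to LP 5. In HP it was 11.94 at the lowest, 12.38 at the median and 12.65 at the highest pig, so that every LP pig lay within the HP range. The difference was -0.20 (95% confidence interval -0.53 to 0.13, limma p = 0.207, exact permutation p = 0.184).

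Set out by chain length, 9 probe sets of 6 genes for long or very long chains had a median difference of -0.27, with 8 of 9 below 0. The 3 probe sets for medium and short chains had a median of -0.19, all below 0. None in either class passed, and ETFDH serves all lengths. For each array the mean of the long-chain genes, CPT2 left out for its spread, was set against the mean of ACADM, ACADS and HADH. This contrast was -0.65 ± 0.13 for LP and -0.52 ± 0.09 for HP, a difference of -0.12, and the diets overlapped. With CPT2 included the difference was -0.078. By step, the medians were -0.13 for the carnitine shuttle and -0.21 for the acyl-CoA dehydrogenases. They were -0.31 for the trifunctional protein, -0.20 for HADH and -0.42 for ETFDH. That of the shuttle lies midway between CPT1B at -0.27 and the dim, widely spread CPT2 at 0.0023. Differences between steps and between chain lengths are descriptions and were not tested.

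**Figure D2:**
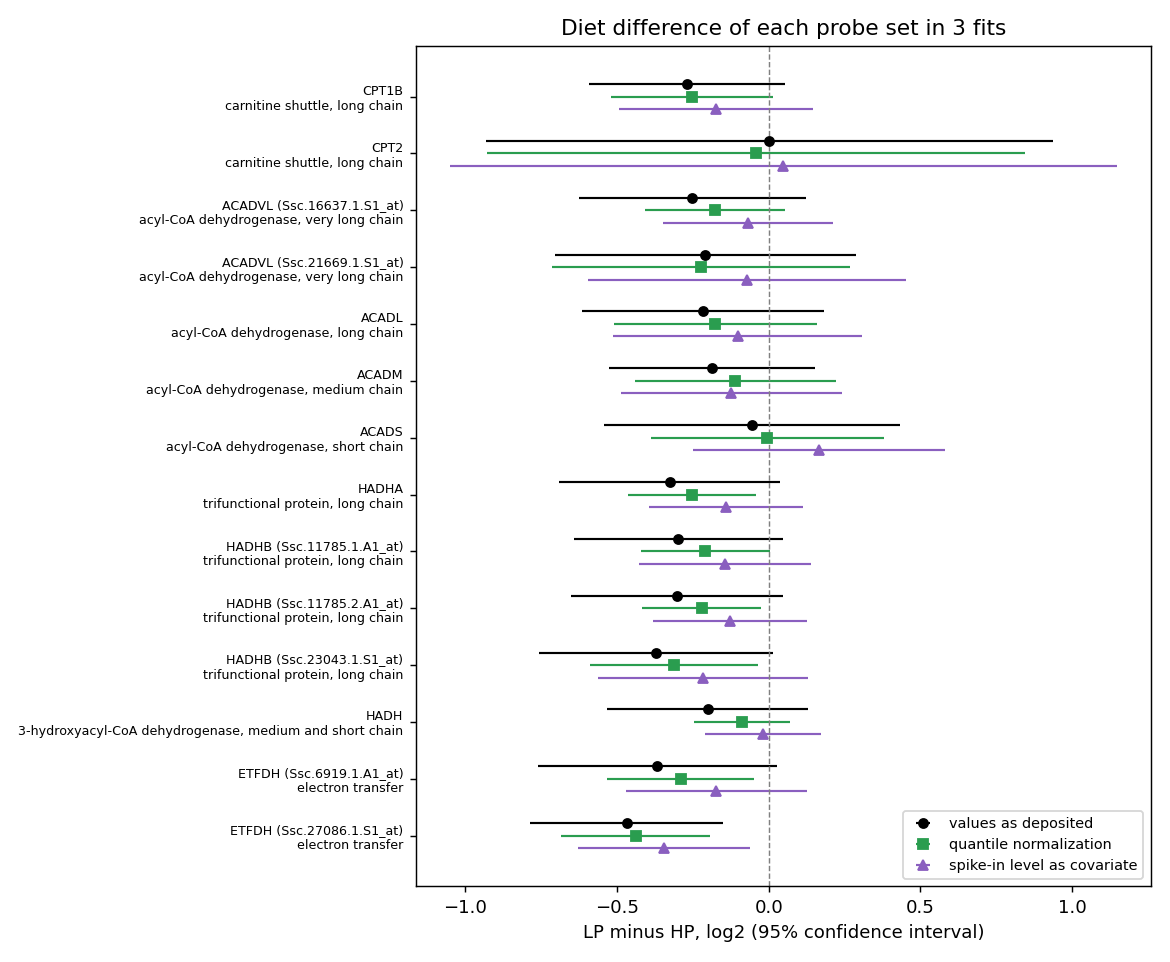
LP minus HP of each probe set on the log2 scale with its 95% confidence interval, ordered by pathway step, from limma on the deposited values (black), after quantile normalization (green) and with the spike-in level of the array as a covariate (purple). In all 3 fits the interval of the dimmer ETFDH probe set, the lowest row, lies below 0, and quantile normalization narrows the intervals of HADHA, HADHB and HADH.

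The level of the pathway moved with the brightness of the arrays. Over the 11 arrays, diet means removed, the mean of the 10 genes had a Pearson r of 0.77 (permutation p = 0.00653) and a Spearman rho of 0.87 (permutation p = 0.00101) with the spike-ins, the 1 relation for which p was computed, so adjustment leaves both p as they are. Leaving out HP 2 and HP 4, whose spike-ins lay farthest from the median, gave r = 0.78, and r was 0.95 within LP and 0.84 within HP. By gene, r with the spike-ins was 0.97 for HADH, 0.87 for HADHA, 0.82 for ACADVL and 0.81 for ETFDH, but 0.47 for ACADL, 0.33 for ACADM and 0.073 for CPT2. The spike-ins themselves averaged 11.85 in LP and 12.12 in HP, a difference of -0.27 beside the members' median of -0.26. With the spike-in level as a covariate the median of the members was -0.13 and ACADS stood above 0 at 0.17. The dimmer ETFDH probe set was the 1 member called in that limma fit, where 3.03% of all probe sets were called lower (-0.34, 95% confidence interval -0.63 to -0.061).

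**Figure D3:**
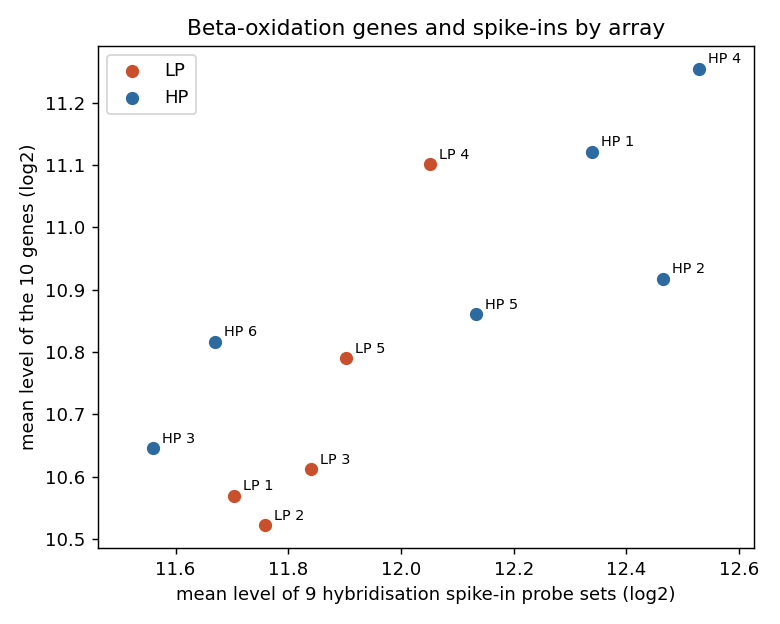
Mean log2 level of the 10 genes, each by its brightest probe set, against the mean log2 level of 9 hybridisation spike-in probe sets on the same array. Each point is a pig, LP in orange (10.52 to 11.102 on the y axis) and HP in blue (10.65 to 11.25), and brighter spike-ins go with higher levels in both diets.

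Quantile normalization gave all arrays the same distribution and so removed the difference in their upper end. The median of the 8 skeletal muscle markers then lay at 0.013, against -0.23 before, and that of 17 citrate cycle genes at -0.0026, against -0.11 before. The muscle markers sit in that upper end, so their move towards 0 follows in part from the method itself. Other enzymes of mitochondrial acyl-CoA oxidation had a median of -0.0070, and genes of uptake, activation and carnitine transfer 0.013. Peroxisomal oxidation genes and regulators of fatty acid oxidation each stood at -0.12. The median of the 14 members was -0.22, against -0.26 before. In limma 5 of them passed, all lower in LP (HADHA, 2 probe sets of HADHB and both of ETFDH). Over all probe sets 3.38% were called lower in that fit. On the reading used for the lists, the brightest probe set of each gene, only HADHA and ETFDH passed. By that reading the members ran from -0.29 for ETFDH to -0.0045 for ACADS, with ACADVL and ACADL at -0.18 in the middle. On this scale the dimmer ETFDH probe set was 10.18 ± 0.18 for LP and 10.62 ± 0.14 for HP, and all 5 LP pigs lay below all 6 HP pigs (exact permutation p = 0.00216, the smallest that 462 splits allow). HADHA was 11.62 ± 0.15 for LP and 11.87 ± 0.10 for HP (log2 difference -0.25, limma p = 0.0226, exact permutation p = 0.00433). ACADS stood at -0.0045 and HADH at -0.088 after this step. On this scale the tests parted for HADH and for the brightest HADHB probe set (exact permutation p = 0.0281, limma p = 0.0525). For HADH the SD was 0.067 for LP and 0.025 for HP, the exact permutation p was 0.00433, and limma, which draws small variances towards those of other probe sets, gave p = 0.247.

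Most members varied together from pig to pig. Among the 45 pairs of genes the median r across the 11 arrays, diet means removed, was 0.56, and the highest were ETFDH with ACADS and HADHA with HADH, at 0.94 each. ACADM followed the others least after CPT2, with a median r of 0.25. These arrays share the brightness differences described above. The 5 genes outside the list most like it, by Pearson r with the mean standardised level of the members over 11 arrays, were NDUFS1, DLST, HSDL2, NDUFC2 and NDUFAB1, with r between 0.96 and 0.98. NDUFS1, NDUFC2 and NDUFAB1 belong to respiratory complex I, and DLST is a subunit of the 2-oxoglutarate dehydrogenase of the citrate cycle. Their r with the spike-ins was between 0.82 and 0.92, and 44.6% of 4663 candidate genes had an r above 0.5. None of the 5 passed between the diets, with differences from -0.36 for HSDL2 to 0.029 for DLST.

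The rest of the pathway was read by the brightest probe set of each gene, in lists assembled from textbook knowledge. Of 13 measured genes for uptake, activation and carnitine transfer, 2 fell, SLC25A20 and ACSL1, and 1 rose, with a median of 0.014. Over all probe sets 2.97% were called lower and 2.15% higher. The riser, ACSL6, lay above the negative controls on 3 of 5 LP and 2 of 6 HP arrays, so its size rests on background values, and it did not pass with the spike-in covariate (0.89). CPT1A, the liver form of the outer membrane enzyme, was picked out after its values were seen. It stood at 10.55, 9.59, 10.62, 10.65 and 10.72 in LP 1 to LP 5, against 10.63, 10.85 and 11.28 at the lowest, median and highest HP pig (log2 difference -0.45, limma p = 0.0636, exact permutation p = 0.0195), and LP 2 lay far below the other pigs. Among 16 other enzymes of mitochondrial acyl-CoA oxidation none passed in either direction, and their median was -0.052. The smallest p of that list was that of ACAA2, the thiolase of medium chains (log2 difference -0.27, limma p = 0.109, exact permutation p = 0.0909). Of 8 peroxisomal oxidation genes none passed (median -0.14), ACOX3 having the smallest limma p (log2 difference -0.19, limma p = 0.268, exact permutation p = 0.245), and of 17 citrate cycle genes none passed (median -0.11), DLD having the smallest (log2 difference -0.21, exact permutation p = 0.154).

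**Figure D4:**
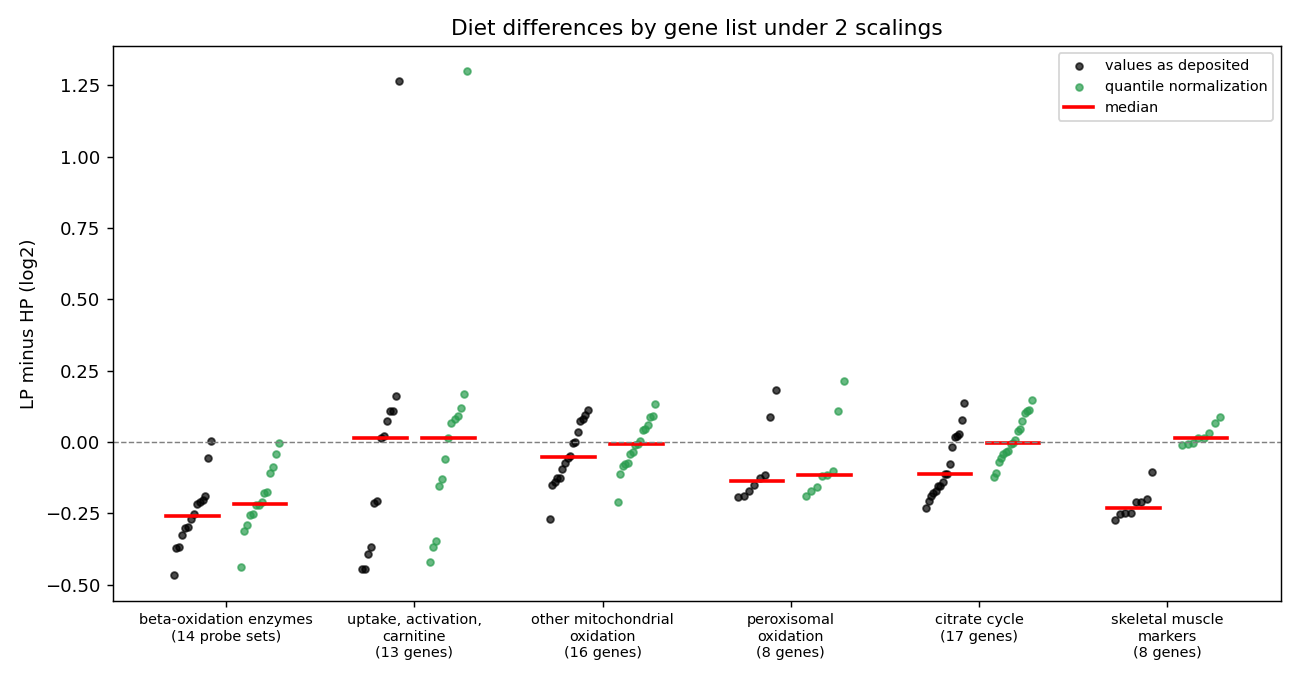
LP minus HP on the log2 scale for the 14 beta-oxidation probe sets and for the genes of 5 lists, with values as deposited (black) and after quantile normalization (green). Points are probe sets or genes and red bars are medians. As deposited and after quantile normalization, they are -0.23 and 0.013 for 8 muscle markers, and -0.11 and -0.0026 for 17 citrate cycle genes. For the 14 beta-oxidation probe sets they are -0.26 and -0.22. Several of the 14 read the same gene, while each list gene is read once, by its brightest probe set. After quantile normalization the medians of the uptake, other mitochondrial and peroxisomal lists are 0.013, -0.0070 and -0.12.

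Among 15 measured regulators of fatty acid oxidation 3 fell and 0 rose, with a median of -0.16. The share called over all probe sets was 2.97% lower and 2.15% higher. ANGPTL4, a secreted inhibitor of lipoprotein lipase and a classic PPAR target, was 2.57-fold lower (7.67 ± 0.61 for LP, 9.03 ± 0.26 for HP, exact permutation p = 0.00216, and every LP pig below every HP pig). PDK4, the kinase that shuts off pyruvate dehydrogenase when fat is burnt, fell by 0.53 (12.54 ± 0.43 for LP, 13.07 ± 0.31 for HP, limma p = 0.0324, exact permutation p = 0.0498). PPARA, the nuclear receptor that drives many of these genes, fell by 0.92 on a dim probe set (3.05 ± 0.73 for LP, 3.97 ± 0.49 for HP, limma p = 0.0232, exact permutation p = 0.0411) that lay above the negative controls on 3 of 5 LP and 6 of 6 HP arrays. A second PPARA probe set, near background on most arrays, differed by 0.044, and a second PDK4 probe set by -0.70 (limma p = 0.0654, exact permutation p = 0.0931). The call on the brighter ANGPTL4 probe set held without each array in turn and with the spike-in covariate (-1.30). With that covariate PDK4 (-0.34) and PPARA (-0.85) did not pass. Of the 11 fits that left out 1 array, the PDK4 call held in 4 (without HP 3, HP 6, LP 4 or LP 5). The PPARA call held in 8, being lost without LP 1, LP 2 or LP 4. PPARGC1A, PPARD and TFAM did not pass, at 0.069, -0.16 and 0.11.

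Markers of fibre types and other cells were set beside the members. Of 8 slow fibre and 7 fast fibre genes none passed, with medians of -0.23 and -0.25 that moved to -0.011 and 0.013 after quantile normalization. The genes with the smallest p were ATP2A2 among the slow (log2 difference -0.24, exact permutation p = 0.160), MYL1 among the fast (log2 difference -0.26, exact permutation p = 0.156) and TTN among the general muscle markers (log2 difference -0.25, exact permutation p = 0.206). Of 6 adipocyte markers none passed, with a median of -0.095, and their summed level was 12.16 to 12.58 in LP and 11.90 to 12.94 in HP. The sum was taken on the linear scale and is mostly FABP4 (12.1 in LP, 12.2 in HP). It therefore does not measure adipocyte content. LEP had the smallest p (log2 difference 0.74, limma p = 0.0533, exact permutation p = 0.0887), and PLIN1 and CIDEC had no single-symbol probe set. A slightly dimmer LEP probe set was higher in LP (log2 difference 3.64, limma p = 0.0203, exact permutation p = 0.00866), with an SD of 3.20 in HP, where 4 of 6 arrays lay above the negative controls. A second probe set of TTN (0.067) and 2 of the other 3 of ATP2A2 (0.70 and 0.023) had the opposite sign to the brightest, and the third of ATP2A2 had the same sign (-0.17). None of 7 endothelial, 3 macrophage, 4 fibroblast or 2 red cell markers passed. Their medians were -0.10, -0.33, -0.26 and 0.15, and the genes with the smallest p were TIE1, CD14, DCN and HBB, at 0.17, -0.33, -0.28 and 0.13. For DCN limma gave p = 0.0525 and the exact permutation test p = 0.0346. Their summed levels overlapped between the diets, at 12.06 to 12.41 in LP and 12.00 to 12.67 in HP for endothelium, 8.44 to 9.23 in LP and 8.18 to 9.63 in HP for macrophages, 12.61 to 12.86 in LP and 12.55 to 13.03 in HP for fibroblasts, and 10.24 to 10.51 in LP and 9.79 to 10.47 in HP for red cells. These sums too are led by the brightest genes of each list. The part of these cells in the differences of the beta-oxidation genes was not tested.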

How the data were processed

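The authors deposited log2 expression levels per probe set of the Affymetrix Porcine Genome Array, 1 array per pig. Their work used R 2.6 and Bioconductor 2.1, and their calls came from puma, which turns probe-level uncertainty into P-like values. These were not used here. How these levels were background-corrected and scaled is not given in the sources used here. Scanner intensities were left aside. Symbols came from the platform annotation, and 23999 of 24123 probe sets remained once 124 controls were removed.

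Every probe set was fitted for LP minus HP in limma 3.58.1 under R 4.3.3 (empirical Bayes, constant prior, two-sided, without covariates). A call needed an unadjusted limma p of 0.05 or less. The study set the same number on puma's P-like values, another statistic. Adjusted p are Benjamini-Hochberg over all probe sets. The exact permutation test, two-sided, took the difference of means over all 462 splits of the pigs, and p of the correlations came from 1e+05 random orders. The precision is limited by how many arrays there are. The fit was tested on simulated data with known changes.

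The members, lists and tests were chosen with earlier results of these data known. Named are all member probe sets, from each of 13 lists up to 4 genes past the threshold or else the gene with the smallest p, and the 5 genes most like the members. ETFA, ETFB, CPT1A, PPARGC1A, PPARD, TFAM and further probe sets of list genes were added after their values were seen. Other settings tried were quantile normalization, leaving out dim probe sets, a floor at the 20th percentile, a prior with trend and robust fitting, weights for arrays, a block for the pig's number, the spike-ins as a covariate and leaving out each array. Leaving out HP 1, HP 2 and HP 4 together was added with array values known.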

Additional observations from a re-analysis of the deposited data

Results flagged for a closer look

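Of 62 groups of pigs searched, 1 diet of 1 probe set each, 2 held an array that stood apart from the rest by Dixon's test at its 95% critical value, which chance passes in about 1 of 20 groups. Both were HP 3, the array with the lowest spike-in level. PDK4 was 12.47 on HP 3, against 13.01 on the next lowest HP array, and DLD, the shared lipoamide dehydrogenase of the citrate cycle complexes, was 11.46, against 11.94. No beta-oxidation probe set was among them.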

How the results depend on the processing

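The median of the 14 members stayed below 0 in all alternatives run, but its size did not. It was -0.26 with the values as deposited, -0.36 to -0.20 without single arrays, -0.13 with the spike-in covariate and -0.11 without HP 1, HP 2 and HP 4 together. The count of members past the threshold, 1 with the values as deposited, was 5 after quantile normalization, 3 of 13 with dim probe sets left out (3.61% of all probe sets lower), 2 with low values raised (2.93%), 4 with the trended robust prior (2.91%), 4 with array weights (3.61%), and 1 to 7 without single arrays, with the 7 reached without HP 3 or LP 4. It was 0 without the 3 HP arrays, where 3.15% of all were lower. The dimmer ETFDH probe set, singled out for its p, passed in 19 of 20 alternatives. The exception was those 3 arrays left out, where its difference was -0.37. The alternatives reuse the same pigs, and several leave its difference unchanged, so they are not independent of each other. With the replicate number as a block 1 member passed and the median was -0.30, and PPARA no longer passed (-0.81). The spike-in covariate also ended the calls of SLC25A20, ACSL1, PDK4, PPARA and ACSL6. Whether the numbers pair the pigs is not known. The deviations of same-numbered pigs correlated between -0.068 and 0.085, which cannot settle it. Over all probe sets 710 of 12000 passed with dim ones left out and, of 23999, 1066 to 1521 without single arrays and 1884 without the 3 HP arrays. CPT2, at 0.0023, turned to -0.042 after quantile normalization, to -0.020 with the block and to -0.16 without the 3 HP arrays, and lay between -0.27 and 0.26 without single arrays, below 0 without HP 1, HP 2, HP 6, LP 4 or LP 5. ACADS turned to 0.17 with the spike-in covariate and to 0.31 without the 3 HP arrays, and lay between -0.17 and 0.032 without single arrays, above 0 without HP 1, HP 4 or LP 3. Without those 3 arrays HADH (0.023), ACOX3 (0.020), TTN (0.051) and MYL1 (0.0060) also turned, and TTN turned to 0.031 after quantile normalization. The causes were not tested. CPT2 had no value with dim probe sets left out. PPARA and ACSL6 lay at or below the negative controls on some arrays, which limits what they can show.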
